A study of Mus musculus with 6 samples.

Results

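The genes described here encode the route of glucose through heart muscle: its uptake, its breakdown to pyruvate and lactate, and its storage as glycogen. They were chosen by name, with earlier results of these data known. The list held 37 genes, and 36 of them have a row among the 24239 rows of the per-mouse table. Of these, 35 had a mean level of at least 1 FPKM (fragments per kilobase of transcript, scaled to the size of the library) over the 6 mice and were tested, and the aldolase gene Aldoc lay below that filter. The enolase gene Eno1 has no row of its own and is described through a merged row below. The pacing group held 3 male C57BL/6 mice, 8 to 10 weeks old, whose atria were paced from a bipolar catheter in the esophagus on 8 days. The sham group held 3 such mice that were controls without pacing. Each pacing session held a cycle length of 80 ms for 45 min, with 3 min at 120 ms before and after, on 5 days and, after 2 days without pacing, on 3 more. The labels name no genetic change and do not say whether any mice were pooled or littermates. Each sample was taken as a separate replicate, so that p-values set the difference between groups against the spread between these samples. Counting steps in the FPKM gave 6272000 to 8908000 effective fragments per mouse. Whole ventricles were sampled, so that in each result fewer cells of a type and less RNA per cell cannot be told apart.

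Heart muscle meets most of its energy need from fatty acids, and takes in glucose through the insulin-responsive transporter GLUT4 and the basal transporter GLUT1. Glucose is phosphorylated by hexokinase and then either enters glycolysis, with phosphofructokinase as its main control point, or is stored by glycogen synthase as glycogen, which phosphorylase breaks down again. Most steps have several isoforms, of which one is typical of muscle and the others of liver, brain or many tissues. The comparison asks how the transcripts of this route differ in the ventricle after repeated fast atrial pacing.

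In paced ventricles most transcripts of the route stood slightly lower than in sham ventricles, and Pygl, Pfkfb3, Phkg1, Pgam1 and Slc16a3 stood higher, none of them past the adjusted threshold. Of 35 genes tested, 30 had a lower and 5 a higher mean log2 level in the paced mice, with a median log2 fold change of -0.09. After FPKM were rescaled to the same sum in each mouse the split was 20 lower and 15 higher, with a median of -0.02 against 0.06 over all genes. Over all 11994 genes tested 51.8% were lower and 48.2% higher, with a median of -0.01. None of the 35 passed limma's test at a Benjamini-Hochberg adjusted p under 0.05, where the background was 0% in each direction, and the lowest adjusted p among them was 0.499, that of Pfkfb3. At an unadjusted p under 0.05, 3 were lower (Pkm, Eno3 and Pgk1) and 2 higher (Pfkfb3 and Pygl), while 3.69% of all genes tested were lower and 5.17% higher. These calls depended on single mice and settings: none was left without sham 2 or without sham 3, 1 lower and 0 higher without the filter, and 0 lower and 1 higher without the trend or without pacing 1. Without sham 1 there were 12 lower and 5 higher, where 6.11% of all genes were lower and 8.38% higher. Without pacing 3 there were 0 lower and 3 higher, where 2.54% of all genes were lower and 3.89% higher. The values of the groups did not overlap in 2 of the 35, both lower, against 6.97% of all genes that were lower and 6.24% that were higher without overlap. With 35 genes, the 2 higher genes and the 2 without overlap are near the background share. The 3 lower genes are above it, by a margin that was not tested. All 3 were among the 16 members with a mean of at least 100 FPKM, where 53 of all 837 genes were lower at an unadjusted p under 0.05. Each log2 fold change is the pacing mean less the sham mean of log2(FPKM + 1), so that low genes show less than their full change. Group values are mean FPKM ± SD with n = 3 mice each.

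**Figure D1:**
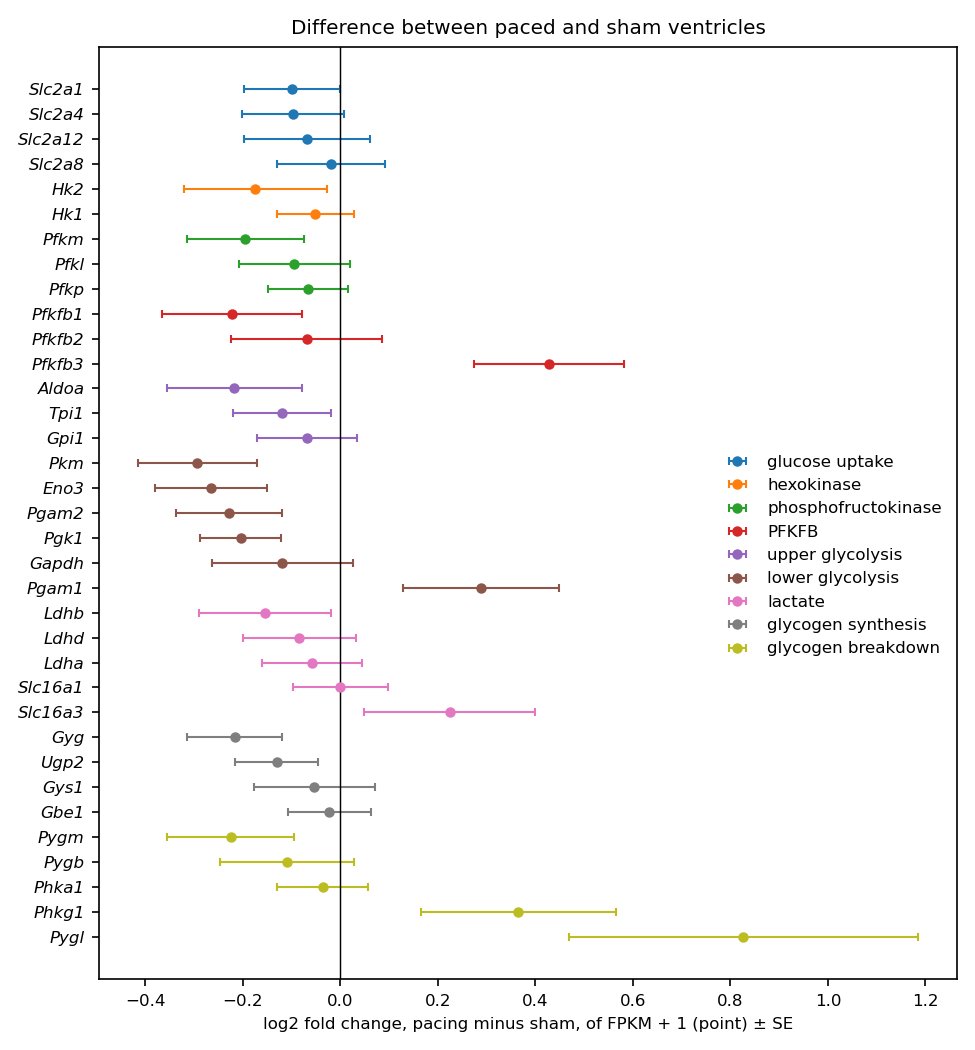
Log2 fold change of FPKM + 1, pacing minus sham, for the 35 genes tested, ordered by role, with the SE from limma as bars (3 mice in each group). Of the 35 points 30 lie left of 0 (20 after rescaling to the same sum), and Pygl, Pfkfb3, Phkg1, Pgam1 and Slc16a3 lie to the right.

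All 16 genes with a mean of at least 100 FPKM were lower in the paced mice, though Ldha and Gpi1 turned positive after rescaling to the same sum, with a median log2 fold change of -0.17 and a range of -0.29 to -0.06. Of all 837 genes at that level 72.3% were lower, with a median of -0.07. Of the 19 tested genes under 100 FPKM, 14 were lower and 5 higher, with a median of -0.05, and the 2 classes were not tested against each other. Markers of heart muscle itself lay lower too: 8 of 8 had a negative log2 fold change (7 after rescaling to the same sum, 5 after quantile normalization), with a median of -0.20. Their summed level was 80365, 83586 and 81297 FPKM in pacing 1, 2 and 3, against 82529, 100374 and 108181 FPKM in sham 1, 2 and 3. The part of this in the levels of the glycolytic genes was not tested. The 35 genes together held 1.87%, 1.94% and 1.76% of all FPKM in pacing 1, 2 and 3, against 1.79%, 2.18% and 1.98% in sham 1, 2 and 3. In this share sham 1 lay among the paced mice, and sham 2 and sham 3 lay above all of them.

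**Figure D2:**
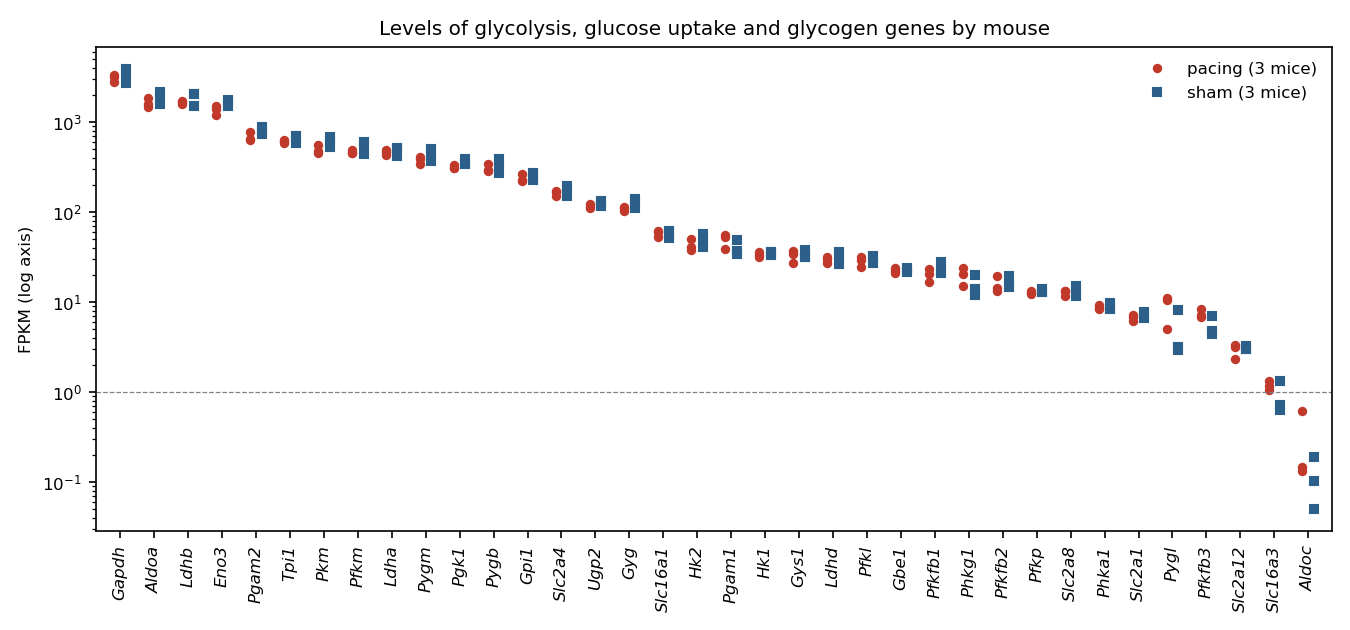
FPKM of the 36 genes in each mouse on a log axis, paced mice as circles left of sham mice as squares, in order of mean level, with the filter at 1 FPKM dashed. Levels run from Gapdh, near 3000 FPKM, to Aldoc, which lies under the filter.

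The position of sham 1 bears on nearly every gene of the route. In 28 of the 30 genes that were lower in the paced group, sham 1 stood below sham 2 and sham 3, and in 5 of the 5 genes that were higher, sham 1 stood above them. Its value lay between paced mice in 25 of 35 genes, below that range in 8 and above it in 2. Sham 1 also differed from the other sham mice in its markers of other tissue: the fat hormone gene Adipoq stood at 72.8, 36.2 and 28.6 FPKM in pacing 1, 2 and 3, against 27.0, 2.14 and 1.94 FPKM in sham 1, 2 and 3. The atrial light chain gene Myl7 stood at 1141, 3520.1 and 2358 FPKM in pacing 1, 2 and 3, against 2699.6, 31.4 and 966 FPKM in sham 1, 2 and 3. Lung markers were high in pacing 2 and pacing 3, with 2.44, 313 and 1718 FPKM summed over 7 genes in pacing 1, 2 and 3, against 4.96, 0.462 and 1.32 FPKM in sham 1, 2 and 3. Macrophage and fibroblast markers had positive log2 fold changes in 5 of 5 and 4 of 4 genes, and endothelial markers negative ones in 4 of 4 (3 after rescaling). Of 11 skeletal muscle markers 7 averaged under 1 FPKM, and of the 4 tested 3 had a positive log2 fold change. The part of these markers in the levels of the glucose genes was not tested. Without sham 1 the median log2 fold change of the 35 genes was -0.17, and 17 were lower and 5 higher without overlap, against 16.5% and 15.4% of all genes. The lowest adjusted p was then 0.0721, again that of Pfkfb3, so that no gene of the route passed. Other mice moved the result the other way: without sham 2 the median was -0.04 with 23 genes lower and 12 higher, and without pacing 3 it was -0.05 with 26 lower and 9 higher.

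**Figure D3:**
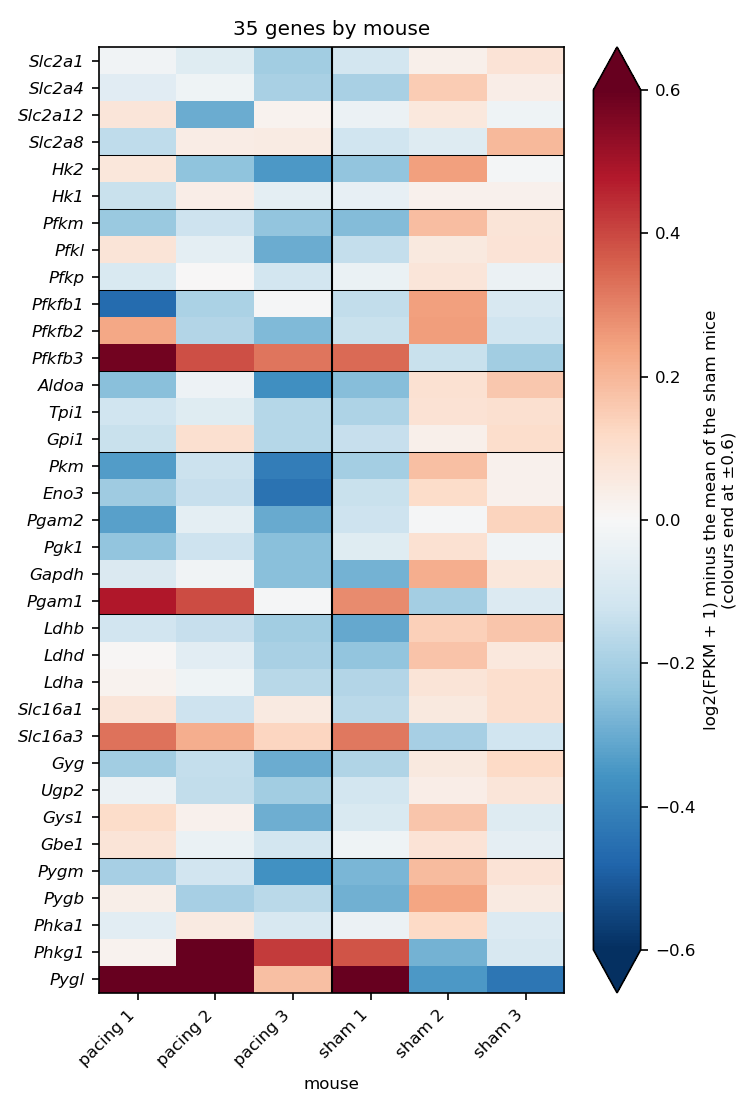
Colour shows log2(FPKM + 1) in each mouse minus the mean of the sham mice, for the 35 genes tested, grouped by role in the order of the text, with paced mice in the left columns and colours ending at ±0.6. The column of sham 1 has the colours of the paced columns in most rows, with 28 of the 30 genes that were lower in the paced group below both other sham mice.

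The upstream sequences of 4 of the 5 genes with an unadjusted p under 0.05 are shown. Their log2 fold changes had both signs, none past the adjusted threshold, and their annotated starts match the ends of the deposited gene. Each holds the 250 bases before the gene's start in the RefSeq table of build GRCm38.p6, read on the gene's strand, and capitals mark the letters ACGTG on either strand, the core that hypoxia-inducible factors and related proteins bind. Eno3 (plus strand, chr11:70656926-70657175) and Pgk1 (plus strand, chrX:106186850-106187099) had lower means in paced ventricles. Pfkfb3 (minus strand, chr2:11553930-11554179) and Pygl (minus strand, chr12:70227684-70227933) had higher means.
Eno3: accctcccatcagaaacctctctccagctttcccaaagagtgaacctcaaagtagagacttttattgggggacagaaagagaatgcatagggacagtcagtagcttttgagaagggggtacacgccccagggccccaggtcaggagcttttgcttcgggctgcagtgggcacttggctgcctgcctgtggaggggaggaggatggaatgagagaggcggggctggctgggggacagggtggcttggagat
Pgk1: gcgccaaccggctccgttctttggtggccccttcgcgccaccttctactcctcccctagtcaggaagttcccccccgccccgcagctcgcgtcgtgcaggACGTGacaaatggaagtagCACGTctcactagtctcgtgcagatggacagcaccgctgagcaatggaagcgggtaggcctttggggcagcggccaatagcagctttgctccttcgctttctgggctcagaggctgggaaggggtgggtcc
Pfkfb3: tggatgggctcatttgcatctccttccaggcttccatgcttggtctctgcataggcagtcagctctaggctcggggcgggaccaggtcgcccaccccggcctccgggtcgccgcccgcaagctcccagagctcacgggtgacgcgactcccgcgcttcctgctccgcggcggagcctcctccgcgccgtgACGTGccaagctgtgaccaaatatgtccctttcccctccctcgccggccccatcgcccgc
Pygl: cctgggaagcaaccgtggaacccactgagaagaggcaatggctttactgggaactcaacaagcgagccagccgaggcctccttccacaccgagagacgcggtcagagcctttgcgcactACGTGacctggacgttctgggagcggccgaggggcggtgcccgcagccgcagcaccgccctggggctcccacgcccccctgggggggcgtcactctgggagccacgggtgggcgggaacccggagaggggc
Pgk1 held 2 copies of ACGTG, Pfkfb3 and Pygl held 1 each and Eno3 held none. The same letters stood in 14 of 35 members matched by symbol (40.0%) and in 16.6% of 32851 upstream windows of this length, and the median GC content was 58.4% in the members and 52.4% in all windows. The 35 windows were not selected for matching starts: that of Pfkm, among the 14, lies 53845 bases from the deposited gene end. The 32851 windows were not limited to genes expressed here. The letters CTA and TAG with any 4 bases between them are a looser pattern than the MEF2 muscle site, whose middle bases are A or T. On either strand this pattern was in none of the windows shown. It stood in 3 of 35 members (8.57%) and in 3.20% of all windows, and each match in the members held a G or C among its middle bases. A match of letters is a description of the window and not a bound site.

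Glucose uptake differed little. The 4 transporters all had negative log2 fold changes, from -0.10 to -0.02, with Slc2a8 turning positive after rescaling to the same sum. Slc2a4, which encodes GLUT4, stood at 166, 171 and 152 FPKM in pacing 1, 2 and 3, against 152, 194 and 179 FPKM in sham 1, 2 and 3, so that the groups overlapped. Its log2 fold change was -0.10 (SE 0.10, limma adjusted p = 0.828). Slc2a1, which encodes GLUT1, averaged 6.67 ± 0.506 FPKM in paced and 7.22 ± 0.559 FPKM in sham ventricles. GLUT4 transcripts made up 87.9 ± 0.770% of the summed FPKM of these 4 transporters in paced and 88.2 ± 1.10% in sham ventricles, a difference smaller than the spread between mice. Slc2a8 and Slc2a12, which encode the transporters GLUT8 and GLUT12, averaged 12.8 ± 1.07 and 2.93 ± 0.522 FPKM in paced ventricles, against 13.0 ± 1.71 and 3.10 ± 0.158 FPKM in sham ventricles.

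The hexokinases trap glucose in the cell. Hk2, the insulin-responsive form of muscle, stood at 50.5, 40.6 and 37.7 FPKM in pacing 1, 2 and 3, against 40.7, 57.4 and 47.9 FPKM in sham 1, 2 and 3. Its log2 fold change of -0.17 (SE 0.15, limma adjusted p = 0.780) was 0.066 with pacing 1, the highest paced mouse, as the only paced mouse, a setting chosen after seeing the data. Hk1, the form of many tissues, averaged 33.8 ± 2.15 FPKM in paced and 35.0 ± 1.09 FPKM in sham ventricles. The share of Hk2 in their sum was 55.7 ± 4.87% in paced and 57.9 ± 3.57% in sham ventricles, and the groups overlapped.

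At the control point of glycolysis, the muscle phosphofructokinase Pfkm stood at 455, 486 and 450.1 FPKM in pacing 1, 2 and 3, against 443, 603 and 559 FPKM in sham 1, 2 and 3. Sham 1 was below every paced mouse and sham 2 and sham 3 above them (log2 fold change -0.19 ± 0.12 SE, adjusted p = 0.684 by limma). The liver form Pfkl averaged 28.5 ± 3.82 FPKM in paced and 30.4 ± 2.63 FPKM in sham ventricles, and the platelet form Pfkp averaged 12.8 ± 0.596 and 13.4 ± 0.639 FPKM in paced and in sham ventricles. Pfkm held 91.8 ± 0.689% of the sum of these forms in paced and 92.4 ± 0.657% in sham ventricles.

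Phosphofructokinase is switched on by fructose 2,6-bisphosphate, which the PFKFB enzymes make and remove. The 3 PFKFB genes had overlapping groups, and differences between them were not tested. Pfkfb3, the form with the highest kinase activity and induced by hypoxia and growth signals, stood at 8.37, 7.20 and 6.84 FPKM in pacing 1, 2 and 3, against 6.94, 4.73 and 4.43 FPKM in sham 1, 2 and 3. The lowest paced mouse lay just under sham 1 and the other 2 paced mice above all sham mice. The log2 fold change was 0.43 (SE 0.15, limma adjusted p = 0.499), a mean 39.2% higher. In the authors' deposited table Pfkfb3 was called higher (7.42 FPKM for pacing, 5.34 FPKM for sham, q = 0.0337). It called 2 members, Pfkfb3 and Pygl, both higher, where 1.23% of its 24341 rows were called higher and 0.152% lower. In mm10 Pfkfb3 lies on chromosome 2 from 11471431 to 11553929. Pfkfb1, known as the liver and muscle gene, averaged 20.2 ± 3.30 FPKM in paced and 23.7 ± 3.81 FPKM in sham ventricles (log2 fold change -0.22, SE 0.14). Pfkfb2, the heart form, stood at 19.3, 14.4 and 13.4 FPKM in pacing 1, 2 and 3, against 14.8, 19.6 and 15.0 FPKM in sham 1, 2 and 3, and showed no order by group. The share of Pfkfb3 in the sum of the 3 genes was 18.8%, 17.1% and 15.7% in pacing 1, 2 and 3, against 16.2%, 9.03% and 10.7% in sham 1, 2 and 3, and sham 1 again lay within the paced range.

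The remaining enzymes of upper glycolysis were slightly lower, with Gpi1 turning positive after rescaling to the same sum. Aldoa, the muscle aldolase, stood at 1602, 1866 and 1481 FPKM in pacing 1, 2 and 3, against 1599.9, 2035 and 2135 FPKM in sham 1, 2 and 3 (log2 fold change -0.22 ± 0.14 SE, adjusted p = 0.695 by limma). Tpi1, triose phosphate isomerase, averaged 610.2 ± 21.3 FPKM in paced and 666 ± 71.5 FPKM in sham ventricles, and Gpi1, glucose phosphate isomerase, averaged 239.7 ± 24.9 and 251 ± 21.3 FPKM in paced and in sham ventricles. All 3 had overlapping groups. Aldoc, the brain aldolase, stood at 0.148, 0.616 and 0.134 FPKM in pacing 1, 2 and 3, against 0.102, 0.0504 and 0.190 FPKM in sham 1, 2 and 3. It lay under the filter and did not separate the groups (exact permutation test, two-sided, p = 0.40, where 3 against 3 mice cannot go below 0.10).

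Lower glycolysis, which yields the ATP of the pathway, held the 3 genes with an unadjusted p under 0.05 on the lower side. Pkm, pyruvate kinase of muscle, stood at 476, 550.1 and 450.3 FPKM in pacing 1, 2 and 3, against 522, 680.4 and 611 FPKM in sham 1, 2 and 3. Only pacing 2 reached into the sham range, above sham 1. The log2 fold change was -0.29 (SE 0.12, limma adjusted p = 0.553), a mean 18.6% lower, and in mm10 the gene lies on chromosome 9 from 59656368 to 59679375. Gene totals do not tell the M1 from the M2 splice form of this gene.

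Eno3, the muscle enolase, stood at 1415, 1493.2 and 1206 FPKM in pacing 1, 2 and 3, against 1493.8, 1769 and 1673 FPKM in sham 1, 2 and 3. The groups did not overlap, but pacing 2 and sham 1 lay less than 1 FPKM apart. The log2 fold change was -0.27 (SE 0.11, limma adjusted p = 0.563). Pgk1, phosphoglycerate kinase, stood at 309, 335 and 306 FPKM in pacing 1, 2 and 3, against 346, 388 and 359.5 FPKM in sham 1, 2 and 3. Each paced mouse was below each sham mouse, and its SE was the smallest of the 3 (log2 fold change -0.20 ± 0.08 SE, adjusted p = 0.551 by limma). Eno3 lies on chromosome 11 from 70657176 to 70662513 and Pgk1 on chromosome X from 106187100 to 106203699 in mm10. After rescaling to the same sum, the log2 fold changes were -0.22 for Pkm, -0.19 for Eno3 and -0.13 for Pgk1, and none of the 3 then had an unadjusted p under 0.05. The groups then overlapped in Pgk1, still did not in Eno3, and no longer did in Pfkfb3.

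The phosphoglycerate mutases had log2 fold changes of opposite sign with overlapping groups, and the difference between them was not tested. Pgam2, the muscle form, stood at 637, 768 and 648 FPKM in pacing 1, 2 and 3, against 732, 796 and 875 FPKM in sham 1, 2 and 3, where pacing 2 lay above sham 1. Its log2 fold change was -0.23 (SE 0.11, limma adjusted p = 0.605). Pgam1, the form of brain and most other tissues, stood at 55.6, 52.2 and 39.3 FPKM in pacing 1, 2 and 3, against 48.4, 34.2 and 37.3 FPKM in sham 1, 2 and 3, and sham 1 lay above pacing 3 (log2 fold change 0.29 ± 0.16 SE, adjusted p = 0.655 by limma). The share of Pgam1 in their sum was 8.04%, 6.37% and 5.71% in pacing 1, 2 and 3, against 6.19%, 4.13% and 4.09% in sham 1, 2 and 3. Gapdh, the most abundant gene of the route, averaged 3089.6 ± 249.6 FPKM in paced and 3381 ± 579.9 FPKM in sham ventricles, and sham 1 held its lowest value, 2748 FPKM. Transcripts of 27 other annotated genes were near-identical to Gapdh (at least 95% over at least 300 bases), so that its level is uncertain. Pgk1 had 3 such copies, Pkm and Pgam1 1 each, and Eno3 and Pgam2 none. Of all 37 genes 10 had a near-identical match in another annotated gene. For Pfkp, Pfkfb2 and Phkg1 the match was a gene whose exons overlap their own, and not a separate copy. Exons of Pkm also overlap those of Gm49759 on the same strand. In the authors' deposited table the broadly expressed enolase is a merged row of Eno1 and its near-identical copy Eno1b, with 53.7 FPKM for pacing and 51.8 FPKM for sham (q = 0.998). The per-mouse values of Eno1b were 54.4, 67.1 and 43.9 FPKM in pacing 1, 2 and 3, against 57.9, 47.1 and 33.1 FPKM in sham 1, 2 and 3, so that the groups overlapped.

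**Figure D4:**
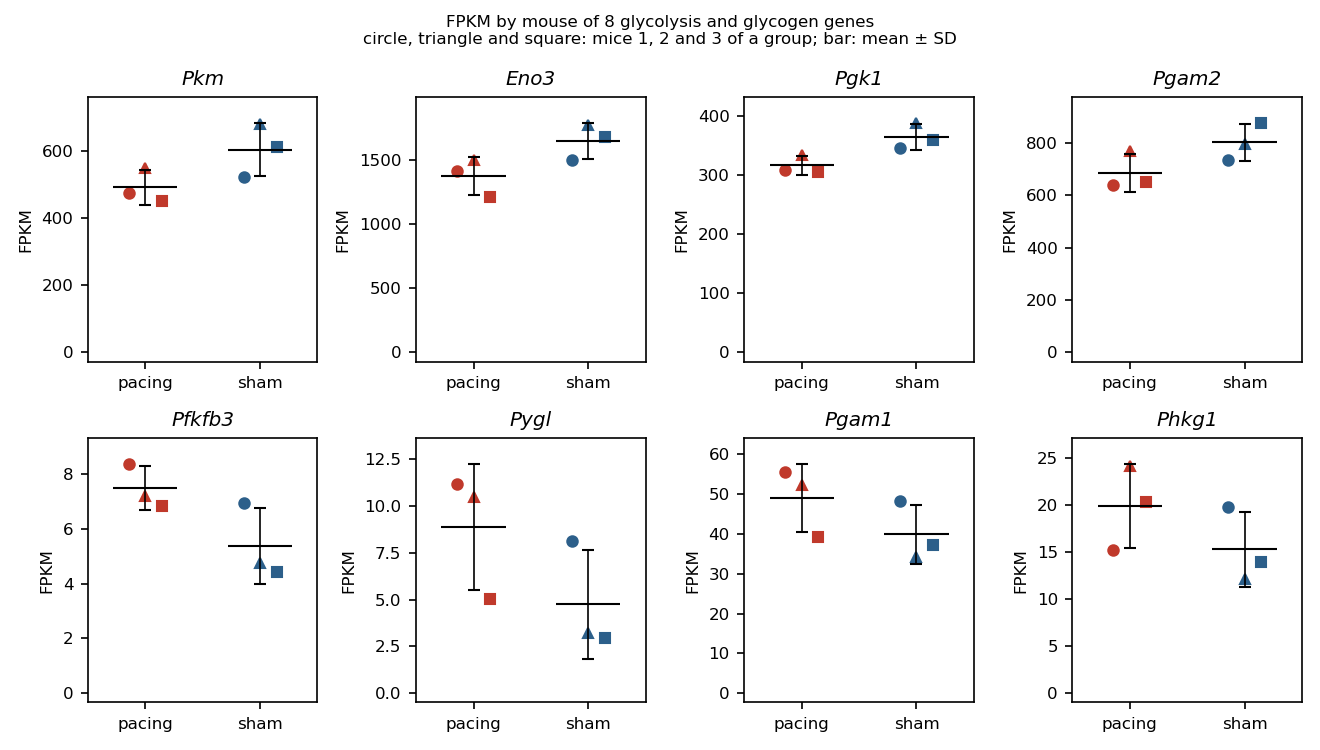
FPKM by mouse for 8 genes, paced mice left and sham mice right, with circle, triangle and square for mice 1, 2 and 3 and a bar for the mean ± SD. In Eno3 and Pgk1 all paced points lie below all sham points, and in the other 6 genes the groups overlap.

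Lactate enzymes and transporters showed no difference beyond the spread between mice. Ldhb, the heart form of lactate dehydrogenase, stood at 1704, 1672 and 1594 FPKM in pacing 1, 2 and 3, against 1491, 2034 and 2067 FPKM in sham 1, 2 and 3. Sham 1 was the lowest and sham 2 and sham 3 the highest of the 6 (log2 fold change -0.15 ± 0.14 SE, adjusted p = 0.789 by limma). Ldha, the muscle form, averaged 461 ± 30.9 FPKM in paced and 481 ± 49.5 FPKM in sham ventricles. Its share of the sum with Ldhb was 21.7 ± 0.568% in paced and 20.7 ± 1.30% in sham ventricles. The D-lactate dehydrogenase Ldhd averaged 29.7 ± 2.14 and 31.7 ± 4.64 FPKM in paced and in sham ventricles. The lactate carrier Slc16a1 (MCT1) had nearly equal means, 58.2 ± 4.32 FPKM in paced and 58.3 ± 5.63 FPKM in sham ventricles. Slc16a3 (MCT4), the carrier of glycolytic cells, stood at 1.34, 1.17 and 1.04 FPKM in pacing 1, 2 and 3, against 1.33, 0.628 and 0.718 FPKM in sham 1, 2 and 3 (log2 fold change 0.22 ± 0.18 SE, adjusted p = 0.765 by limma). It sits near the filter, where 1 FPKM on an effective length of 2 kb stands for 12.5 to 17.8 fragments.

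The 4 genes of glycogen synthesis were lower, from -0.22 to -0.02 on the log2 scale, though Gys1 and Gbe1 turned positive after rescaling to the same sum. Gyg, glycogenin, the primer on which glycogen is built, stood at 109.7, 115 and 103 FPKM in pacing 1, 2 and 3, against 112, 132 and 138 FPKM in sham 1, 2 and 3. Pacing 2 alone reached above the lowest sham mouse, sham 1 (log2 fold change -0.22 ± 0.10 SE, adjusted p = 0.577 by limma). Ugp2, which makes the UDP-glucose donor, averaged 116 ± 7.09 FPKM in paced and 128 ± 8.44 FPKM in sham ventricles. The muscle glycogen synthase Gys1 averaged 32.7 ± 4.80 and 33.9 ± 3.63 FPKM, and the branching enzyme Gbe1 averaged 22.2 ± 1.54 and 22.6 ± 1.19 FPKM, in paced and in sham ventricles.

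Of the 5 genes of glycogen breakdown 3 were lower and 2 higher, with Phka1 turning positive after rescaling to the same sum and overlapping groups in each of the phosphorylases. Pygm, the muscle phosphorylase, stood at 387, 411 and 346 FPKM in pacing 1, 2 and 3, against 368, 507 and 470.5 FPKM in sham 1, 2 and 3 (log2 fold change -0.22 ± 0.13 SE, adjusted p = 0.674 by limma). Pygb, the brain form, which heart also expresses, averaged 307 ± 27.4 FPKM in paced and 334 ± 60.0 FPKM in sham ventricles. Pygl, the liver form, was low and had the largest log2 fold change of the 35 genes. It stood at 11.2, 10.4 and 5.03 FPKM in pacing 1, 2 and 3, against 8.11, 3.20 and 2.94 FPKM in sham 1, 2 and 3. Sham 1 lay above pacing 3, and the other 2 sham mice were lowest (log2 fold change 0.83 ± 0.36 SE, adjusted p = 0.563 by limma). The authors' deposited table called it higher (8.83 FPKM for pacing, 4.72 FPKM for sham, q = 0.00328). In mm10 Pygl lies on chromosome 12 from 70190815 to 70227683.

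Fat markers were higher in the paced mice, as Pygl was. Of 6 adipocyte markers 6 had a positive log2 fold change, with a median of 2.74, and 4 were higher in every paced mouse than in every sham mouse. Their sum, most of it the Fabp4 that capillaries also express, was 2521, 1951 and 1783 FPKM in pacing 1, 2 and 3, against 1954, 1670.1 and 1593.6 FPKM in sham 1, 2 and 3. No adipocyte marker was at 0 in all mice. The part of fat in the level of Pygl was not tested. Phkg1, the catalytic subunit of muscle phosphorylase kinase, stood at 15.2, 24.2 and 20.4 FPKM in pacing 1, 2 and 3, against 19.8, 12.1 and 14.0 FPKM in sham 1, 2 and 3 (log2 fold change 0.37 ± 0.20 SE, adjusted p = 0.654 by limma). Sham 1, the highest sham mouse, lay above pacing 1, the lowest paced mouse, and leaving out 1 mouse at a time gave log2 fold changes of 0.22 (without pacing 2 or without sham 2) to 0.56 (without sham 1). The exons of Phkg1 overlap those of Sumf2 on the other strand, and how strand was treated in the counting is not given in the sources used here. Its partner, the regulatory subunit Phka1, averaged 8.70 ± 0.534 FPKM in paced and 8.95 ± 0.737 FPKM in sham ventricles.

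Of 62 further genes of glucose metabolism and its control, 51 were tested. Of these 27 were lower and 24 higher, with a median log2 fold change of -0.01 (17 lower and 34 higher after rescaling to the same sum), and none passed at an adjusted p under 0.05 (lowest 0.390). At an unadjusted p under 0.05, 3 were higher and 2 lower, and 3 were higher and 1 lower without overlap. Beside the 5.17% and 3.69% of all genes at that p, and the 6.24% and 6.97% without overlap, these counts are near the background or below it. Bpgm, which makes the 2,3-bisphosphoglycerate of red cells, stood at 36.9, 41.7 and 36.9 FPKM in pacing 1, 2 and 3, against 26.5, 21.6 and 31.7 FPKM in sham 1, 2 and 3. Each paced mouse was above each sham mouse (log2 fold change 0.53 ± 0.13 SE, adjusted p = 0.390 by limma). Red cell markers were higher too, with 215, 189 and 159 FPKM summed over 4 genes in pacing 1, 2 and 3, against 70.2, 73.8 and 85.2 FPKM in sham 1, 2 and 3, and their part in the level of Bpgm was not tested.

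Gfpt2, which opens the hexosamine branch, also separated the groups, with 15.2, 9.29 and 7.05 FPKM in pacing 1, 2 and 3, against 5.50, 3.91 and 5.66 FPKM in sham 1, 2 and 3 (log2 fold change 0.89 ± 0.24 SE, adjusted p = 0.399 by limma). Tkt, transketolase of the pentose phosphate branch, stood at 39.1, 42.0 and 22.2 FPKM in pacing 1, 2 and 3, against 26.6, 11.4 and 12.2 FPKM in sham 1, 2 and 3. Sham 1 lay above pacing 3, and the other 2 sham mice were lowest (log2 fold change 1.05 ± 0.33 SE, adjusted p = 0.473 by limma). Without sham 1 its limma adjusted p was 0.0416, with every paced mouse above the other 2 sham mice. In that setting 15.4% of all genes were higher without overlap, and Bpgm and Gfpt2 had limma adjusted p of 0.174 and 0.179. Many more genes over the whole series passed without sham 1 than with all mice, as given below. Tkt, Fbp2 and Tbc1d1 are named after their values were seen. On the lower side Irs1, the insulin receptor substrate, stood at 3.30, 2.71 and 2.91 FPKM in pacing 1, 2 and 3, against 3.82, 3.49 and 3.99 FPKM in sham 1, 2 and 3, with no overlap (log2 fold change -0.26 ± 0.11 SE, adjusted p = 0.553 by limma). Fbp2, the muscle fructose bisphosphatase, averaged 36.4 ± 5.57 FPKM in paced and 46.8 ± 8.64 FPKM in sham ventricles with overlap (log2 fold change -0.35, SE 0.15). The authors' deposited table called 4 of the 62 genes, all higher: Bpgm, Gfpt2, Tkt and the GLUT4 traffic regulator Tbc1d1 (q = 0.00595, 0.00328, 0.00328 and 0.0222), where 1.23% of all its rows were called higher and 0.152% lower.

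**Figure D5:**
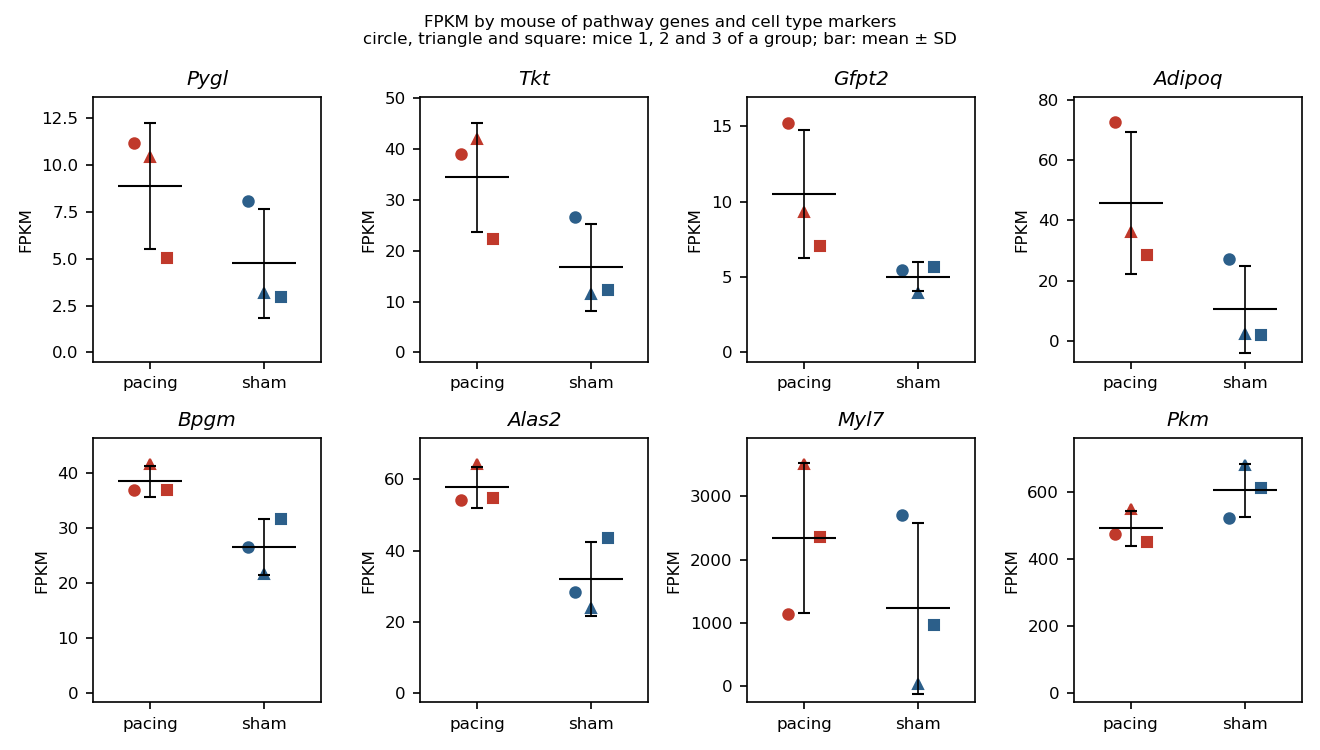
FPKM by mouse for Pygl, Tkt and Gfpt2 beside the fat marker Adipoq, Bpgm beside the red cell marker Alas2, and Pkm beside the atrial marker Myl7, paced mice left and sham mice right, with mice 1, 2 and 3 as circle, triangle and square and the mean ± SD as bars. Adipoq, Bpgm, Gfpt2 and Alas2 do not overlap between the groups, and sham 1 is the highest sham mouse in Pygl, Tkt, Adipoq and Myl7.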

How the data were processed

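Polyadenylated RNA of ventricles from 6 mice was sequenced from stranded libraries as paired reads of 151 bases, per the labels' protocols. Per the submitters' processing notes the tools were FastQC 1.0.0, TopHat2 2.1.0, Bowtie2 2.2.6, Cufflinks and Cuffdiff, with build mm10, with their order and strand setting not given in the sources used here. Deposited by the authors were FPKM per gene and mouse and a comparison table with group FPKM and q-values (adjusted p-values). FPKM are not counts, so limma 3.58.1 in R 4.3.3 was run on log2(FPKM + 1) with a trend in eBayes, on 11994 genes with a mean of at least 1 FPKM, and p-values were adjusted by Benjamini-Hochberg over all of them. The same steps were tested on simulated data with independent noise in each gene. The planted changes were larger than any of the members in the main fit, so that changes of the members' size were not tested. Effective fragments per mouse were estimated from the steps of low FPKM, with 246 single-exon genes searched and only 11 to 19 values used per mouse. Depth is otherwise unknown. The labels give no pairing by replicate number, and the main fit used none. Deviations from the group means had correlations of -0.125 to -0.0201 in same-numbered mice and -0.100 to 0.113 in other-numbered mice. Deviations of 3 mice sum to 0 in each group, so that these correlations cannot tell whether mice were paired. Deposited starts count from 0 and are printed counted from 1. Near-identical copies were found with minimap2 2.31 on GENCODE vM21 transcripts. Upstream sequences come from RefSeq (GRCm38.p6), with 35 of 36 members matched. Further pathway genes were named where the groups did not overlap and the unadjusted p was under 0.05. Members and lists were chosen with earlier results of these data known. Alternatives changed the pseudocount, filter, scaling, trend, replicate block and the mice included; leaving out pacing 2 and pacing 3 together was chosen after seeing the data.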

Additional observations from a re-analysis of the deposited data

How the results depend on the processing

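Of the 15 alternatives none gave a member at an adjusted p under 0.05. Over all genes the count higher at that threshold was 0 with all mice, 6 without the filter, 7 with the replicate block and 0 to 106 when 1 mouse was left out (106 without sham 1, 7 without pacing 1), and the count lower was 0 to 1. Over the 15 alternatives the log2 fold change ran from -0.39 to -0.20 for Pkm, -0.33 to -0.14 for Eno3, -0.24 to -0.13 for Pgk1, 0.32 to 0.60 for Pfkfb3, 0.61 to 1.21 for Pygl, 0.022 to 0.56 for Phkg1, -0.26 to -0.011 for Gapdh, -0.31 to -0.0069 for Ldhb and -0.32 to -0.10 for Pfkm. Rescaling to the same sum moved the median of all genes to 0.06 and that of the members to -0.02, with 15 members higher and 20 lower. It reversed Hk1 (0.024), Gpi1 (0.0092), Gys1 (0.022), Ldha (0.019), Slc2a8 (0.053), Slc16a1 (0.077), Pfkp (0.0051), Pfkfb2 (0.0043), Phka1 (0.033) and Gbe1 (0.052). Quantile normalization reversed Slc16a1 (0.015). Without pacing 2 and pacing 3, an alternative chosen after seeing the data that leaves 1 paced mouse against 3 sham mice and takes the spread from the sham mice, Hk2 (0.066), Pygb (0.034), Gys1 (0.11), Ldha (0.020), Ldhd (0.0070), Slc2a12 (0.072), Slc16a1 (0.072), Pfkfb2 (0.23), Pfkl (0.077) and Gbe1 (0.079) reversed. Leaving out 1 mouse at a time reversed 10 members, whose log2 fold changes ran -0.074 to 0.020 for Gbe1, -0.14 to 0.067 for Gys1, -0.20 to 0.0025 for Ldhd, -0.22 to 0.058 for Pfkfb2, -0.18 to 0.0084 for Pfkl, -0.081 to 0.023 for Phka1, -0.25 to 0.0095 for Pygb, -0.080 to 0.062 for Slc16a1, -0.14 to 0.046 for Slc2a12 and -0.079 to 0.079 for Slc2a8. The cause was not tested. In the authors' deposited table a q under 0.01 leaves 11 rows lower and 1 member higher, Pygl. Aldoc and Slc16a3 had low levels, which limits what their values can show.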
